A study of Rattus norvegicus with 28 samples.

Results

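The myelin and oligodendrocyte genes described here are 34 genes chosen by symbol for their known roles, of 36387 gene records in the deposited table. Each symbol matched 1 record. All 34 passed the filter on low counts, as did 17404 records in all. They were measured by RNA sequencing in the prefrontal cortex of rats of the outbred Sprague-Dawley stock, all of them adult males that were 8 weeks old on arrival. Every animal had a pair of intraperitoneal injections, the first of ketanserin or of its vehicle (5% Tween-80) and the second of psilocybin or of saline, and the tissue was collected 24 h later. Psilocybin is a serotonergic psychedelic, and ketanserin is an antagonist of the serotonin 2A receptor, which psilocybin's active metabolite stimulates. The 7 groups of 4 libraries were vehicle (Tween-80, then saline), psilocybin at 1 mg/kg or at 3 mg/kg after Tween-80, ketanserin at 1 mg/kg or at 3 mg/kg before saline, and both drugs in turn, each at 1 mg/kg or each at 3 mg/kg. No animal went uninjected, so all groups, controls included, carry the Tween-80 and the handling. The labels call the 4 libraries of a group biological replicates. The replicate numbers used below only name libraries.

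Oligodendrocytes wrap axons in myelin, a stack of membrane that speeds conduction and is rich in galactolipids and in a few abundant proteins. They arise from precursor cells that carry the receptor Pdgfra and the proteoglycan Cspg4 (NG2). Those cells leave the cycle, pass through a short premyelinating stage, and switch on myelin genes under the transcription factors Sox10, Olig1, Olig2, Nkx6-2 and Myrf. In prefrontal cortex, myelin is sparse in the upper layers and dense near the white matter below.

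The members were sorted by role. Of these, 11 code for myelin proteins and proteins of its membrane domains (Mbp, Mobp, Mog, Mag, Cnp, Mal, Ermn, Opalin, Cldn11, Tspan2, Cd9), a pair for gap junction connexins (Gjb1, Gjc3), and 5 for enzymes of lipid and acetate metabolism (Ugt8, Fa2h, Gal3st1, Aspa, Enpp2). These 18 are called the myelin members. The other roles were transcription (Sox10, Olig1, Olig2, Myrf, Nkx6-2), support and metabolism (Tf, Plekhb1, Qdpr, Car2, Apod, Sirt2, Hapln2) and stage markers (Pdgfra and Cspg4 for precursors, Bcas1 and Enpp6 for newly forming oligodendrocytes).

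Promoter sequence is shown for 5 members, some with and some without a match to the letters described next. Myrf, a membrane-bound factor that is cut free and binds DNA at myelin genes, recognises sites with the letters CTGGCAC or CTGGTAC. RefSeq windows on GRCr8 (250 bases before to 50 bases after a start) were found for 26 members, 27 windows in all because Mbp has a pair. One or the other string, on either strand, was in 8 of 27 member windows (29.63%) and in 6.782% of the 33469 windows of all genes. The 8 genes were Mag, Opalin, Cldn11, Hapln2, Mal, Cnp, Olig2 and Enpp6. The pair of Mbp windows and those of Ugt8, Mobp, Fa2h and Gjb1 held 0 matches. Whether matches go with how members vary together between animals was not tested. A match of letters is not a binding site, and these data hold no measure of binding. The windows of Mal, Mag and Opalin carry 1 match each and those of Tspan2 and Pdgfra carry 0. The 3 matches lie 126, 94 and 17 bases before the start. Capitals mark the match, which reads GTGCCAG where it lies on the opposite strand. All are printed 5′ to 3′ on the strand of the gene.
Mal: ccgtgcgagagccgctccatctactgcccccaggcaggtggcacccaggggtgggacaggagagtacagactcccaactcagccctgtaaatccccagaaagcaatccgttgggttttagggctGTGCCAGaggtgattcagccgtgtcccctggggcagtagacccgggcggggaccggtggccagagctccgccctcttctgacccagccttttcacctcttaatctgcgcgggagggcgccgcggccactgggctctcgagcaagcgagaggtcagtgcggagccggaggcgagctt
Mag: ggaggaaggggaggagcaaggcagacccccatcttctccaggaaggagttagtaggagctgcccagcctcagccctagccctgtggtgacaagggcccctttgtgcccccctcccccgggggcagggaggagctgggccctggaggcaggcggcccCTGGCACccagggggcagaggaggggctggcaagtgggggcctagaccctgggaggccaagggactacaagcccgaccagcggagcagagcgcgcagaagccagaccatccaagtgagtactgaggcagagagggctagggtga
Opalin: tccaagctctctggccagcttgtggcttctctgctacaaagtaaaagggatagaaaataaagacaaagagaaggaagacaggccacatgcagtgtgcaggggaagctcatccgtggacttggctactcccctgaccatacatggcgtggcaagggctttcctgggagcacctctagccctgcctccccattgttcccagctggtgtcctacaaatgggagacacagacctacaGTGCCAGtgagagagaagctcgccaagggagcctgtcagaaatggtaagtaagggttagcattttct
Tspan2: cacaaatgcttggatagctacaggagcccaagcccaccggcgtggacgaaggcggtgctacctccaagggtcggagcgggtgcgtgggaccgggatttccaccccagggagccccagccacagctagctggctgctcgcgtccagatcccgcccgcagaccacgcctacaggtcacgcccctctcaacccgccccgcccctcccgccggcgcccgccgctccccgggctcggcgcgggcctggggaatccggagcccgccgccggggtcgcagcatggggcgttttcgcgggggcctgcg
Pdgfra: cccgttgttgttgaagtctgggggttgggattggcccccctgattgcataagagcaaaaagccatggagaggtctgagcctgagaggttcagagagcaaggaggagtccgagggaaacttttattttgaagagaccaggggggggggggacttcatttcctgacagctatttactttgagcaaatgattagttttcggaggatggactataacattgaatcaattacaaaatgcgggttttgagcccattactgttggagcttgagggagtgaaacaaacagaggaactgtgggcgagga
The windows lie, in GRCr8, at chr3:135341374-135341673 (minus strand) for Mal, chr1:95290995-95291294 (minus) for Mag, chr1:249858141-249858440 (minus) for Opalin, chr2:192866030-192866329 (plus) for Tspan2 and chr14:33408467-33408766 (minus) for Pdgfra. Other strings were about as frequent in the member windows as in all windows. The SOX core ACAAAG or ACAATG was in 9 of 27 (33.33%) against 29.13%. The E-box CAGCTG or CATCTG, of the kind that OLIG factors bind, was also in 9 of 27 against 29.13%, and TATAAA was in 4 of 27 (14.81%) against 14.22%.

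The labelled tissue was checked against a neuron and an astrocyte marker, which do not place the dissection within cortex or measure its white matter. All libraries held the cortical excitatory neuron transporter Slc17a7 at 2097 to 2952 CPM (counts scaled to a common library size with TMM factors), and Gfap of astrocytes at 349.96 to 577 CPM. Total counts were 12783067 to 18538414 per library. Ketanserin with psilocybin at 3 mg/kg, replicate 4, stood apart, with 19602 records at 0 counts against 15344 to 16657 in the others.

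Compared per length, in the authors' FPKM (fragments scaled to gene length and library size), the members spanned a wide range of levels. Mbp, the basic protein that holds the cytoplasmic faces of myelin together, was highest, at a mean of 740.2 FPKM over the 28 libraries (347 to 1434). It alone made 28.9 to 42.3% of the summed FPKM of the 34 members. Cnp, an enzyme of the cytoplasmic channels of myelin, followed at 163 FPKM and the deacetylase Sirt2 at 104 FPKM. The transcription factors lay from 10.8 FPKM for Nkx6-2 to 59.4 for Olig1. Lowest were Enpp6, a choline phosphodiesterase that marks oligodendrocytes as they form, at 1.17 FPKM (0.568 to 2.85), and the connexin Gjc3 at 2.53 FPKM. Pdgfra was at 6.82 and Cspg4 at 3.45 FPKM. In the rn6 coordinates of the deposited table Mbp spans chr18:79326738-79437310 on the plus strand, Ugt8 chr2:229644382-229718659 on the minus strand, Gjb1 chrX:71272042-71279977 on the plus strand, Enpp6 chr16:48315914-48437242 on the minus strand and Pdgfra chr14:35527927-35581031 on the minus strand. Together the members made up 0.320 to 0.925% of each library's counts.

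No member passed the test in any comparison, and levels of many members spread widely between animals of the same group. The members were tested in 15 contrasts and in 1 joint test of any difference among the 7 groups (edgeR quasi-likelihood, Benjamini-Hochberg adjustment over 17404 genes, threshold 0.05). In the joint test 0 of 34 members passed (adjusted p = 1.00 for each), against 0.0172% of all genes, which is 3 genes. At an unadjusted p under 0.05 it was 0 of 34 members against 2.22% of all genes. The 4 members with the smallest joint p were Ugt8 (unadjusted p = 0.0938), Enpp6 (0.162), Car2 (0.196) and Cldn11 (0.199). In the 15 contrasts 0 members were called, with adjusted p from 0.693 to 1.00, and DESeq2 called 0 as well. Only 1 gene of all, no member, was called in any contrast (both drugs at 3 mg/kg against vehicle, 0.00575% of genes; 0% elsewhere). The 95% interval of a member's log2 fold change had a median half-width of 0.57 in the comparisons with vehicle, with extremes of 0.27 and 1.15 between members. That interval is not adjusted for the number of genes tested. Where members are said below to be higher or lower, this is the sign of an estimate that did not pass.

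**Figure D1:**
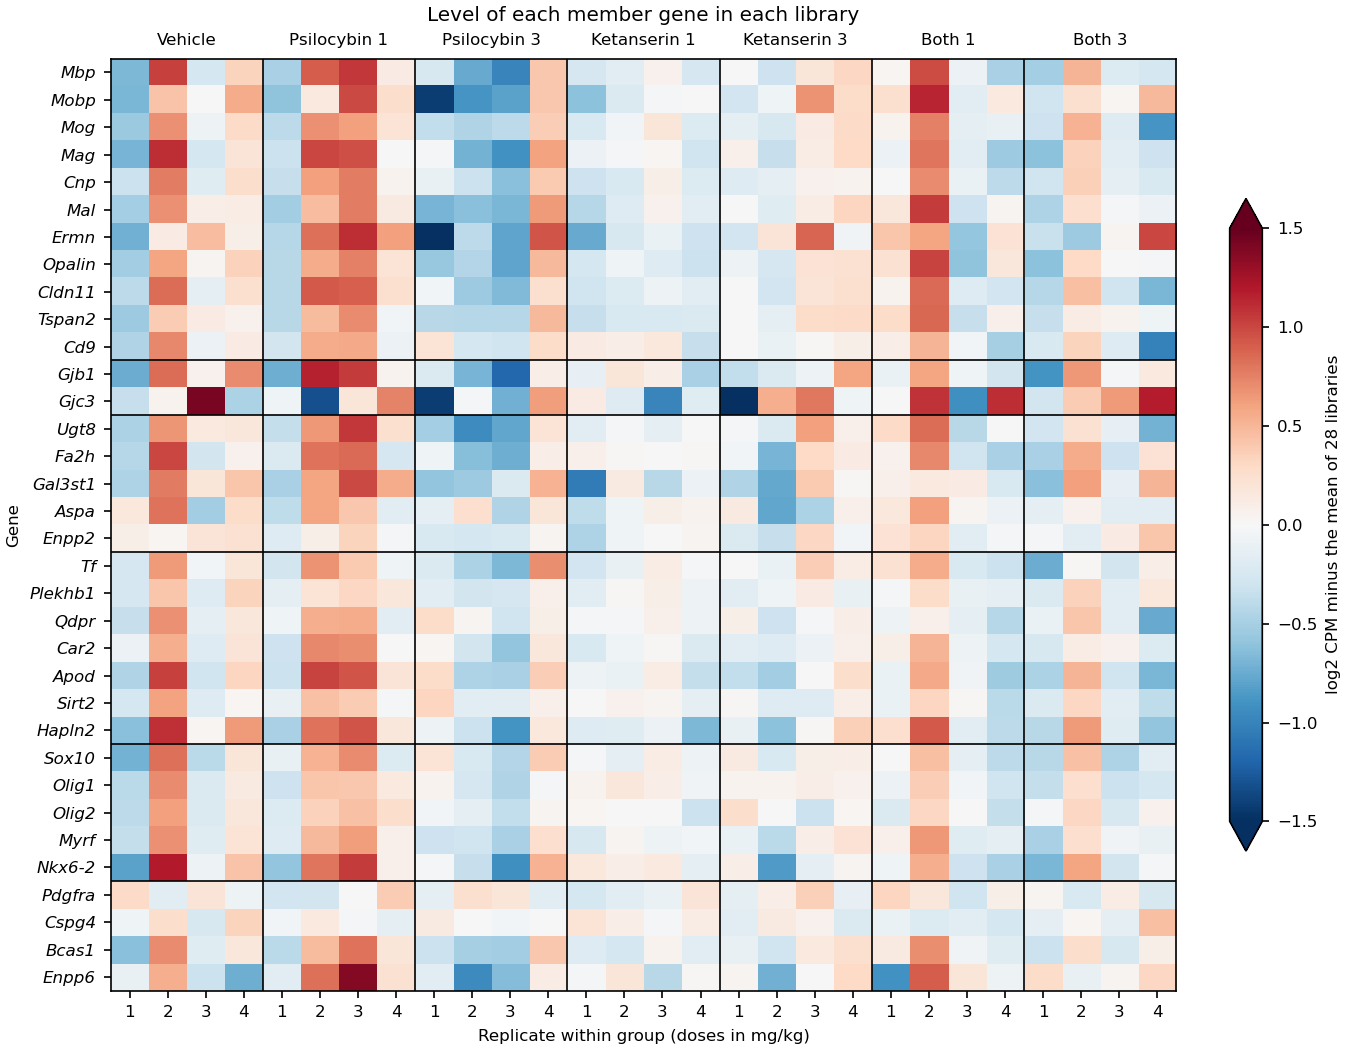
Each cell is the log2 CPM of one gene (rows, grouped by role from myelin proteins at the top to stage markers at the bottom) in one library (columns, 4 per group), minus that gene's mean over 28 libraries; colours end at -1.5 and 1.5. Whole columns are red or blue within a group: vehicle replicate 2 is above the mean for 33 of 34 members and psilocybin 1 mg/kg replicate 1 for 0 of 34.

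Mbp showed the spread between animals best. In vehicle libraries 1 to 4 it was at 1473, 4786, 1956 and 2955 CPM, and after psilocybin at 1 mg/kg at 1678, 4403, 4882 and 2544. After psilocybin at 3 mg/kg it was at 1988, 1389, 1181 and 3111 CPM. Each of these groups holds low and high libraries, so the groups overlap. After ketanserin at 1 mg/kg Mbp was at 1971, 2083, 2462 and 1971 CPM, and at 3 mg/kg at 2348, 1891, 2663 and 2918. With both drugs it was at 2403, 4616, 2206 and 1669.9 CPM at 1 mg/kg and at 1643, 3353, 2028 and 1957 at 3 mg/kg. The ketanserin libraries lay closest together. The group means ± SD (n = 4 each) were 2793 ± 1466 in vehicle, 3377 ± 1516 and 1917 ± 866 after psilocybin at 1 and 3 mg/kg, and 2122 ± 233 after ketanserin at 1 mg/kg. Against vehicle the log2 fold change of Mbp was 0.27 (SE 0.370) and -0.54 (SE 0.371) for the lower and higher dose of psilocybin. In bulk tissue, fewer oligodendrocytes and less RNA per oligodendrocyte cannot be told apart.

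**Figure D2:**
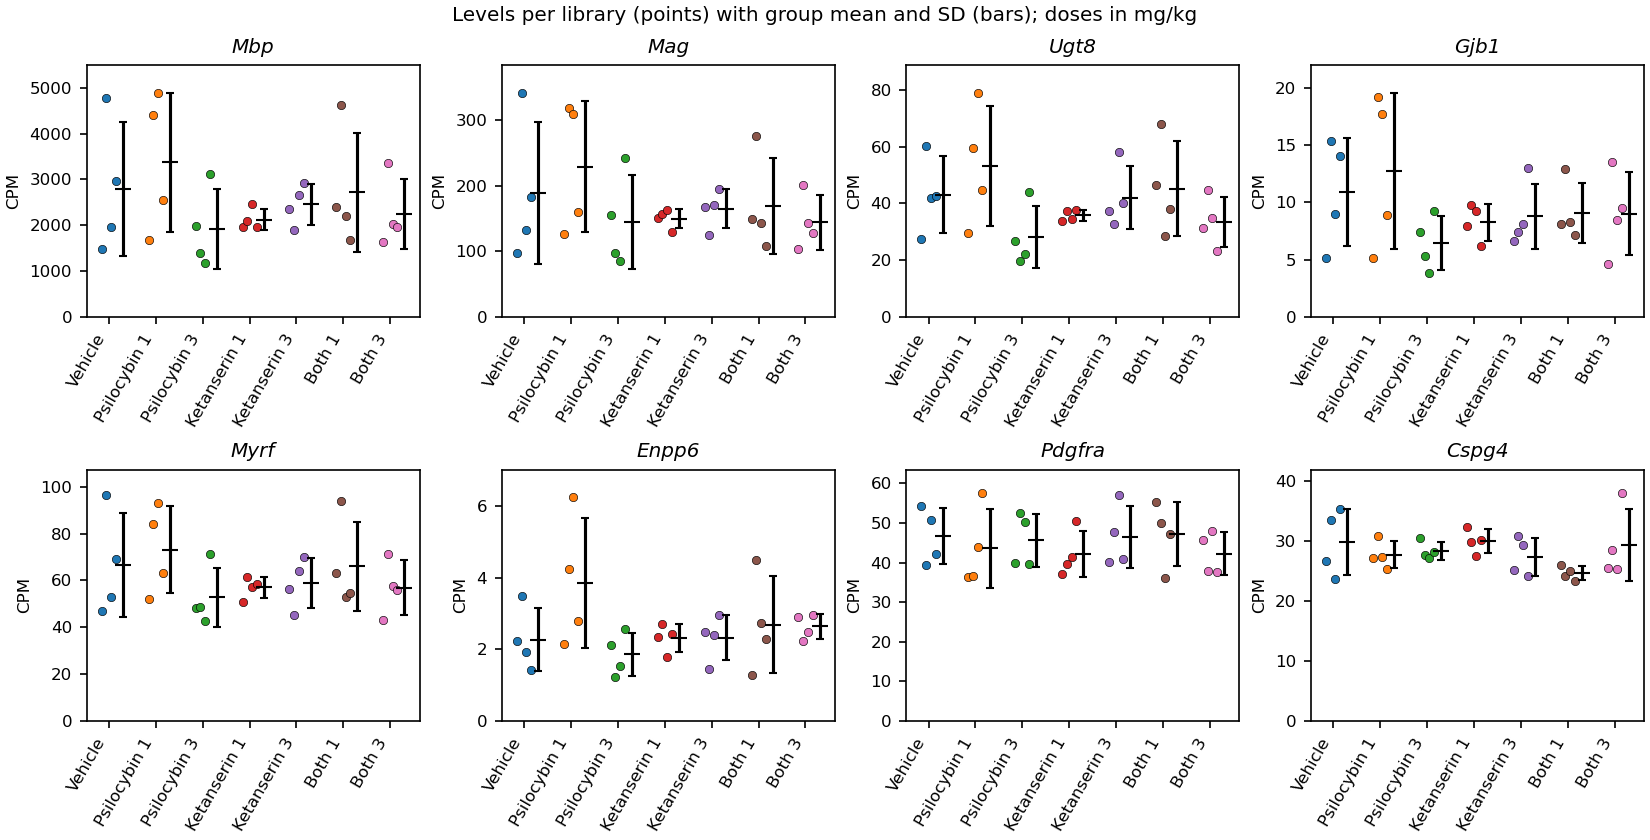
Levels in CPM (vertical axes, starting at 0) of 8 genes in each library (points) by group (horizontal axis), with the mean and SD of 4 libraries as a bar and whiskers beside them. Mbp ranges from 1473 to 4786 CPM within vehicle and Myrf from 47.0 to 96.6 CPM, while over all libraries Pdgfra stays within 36.1 to 57.6 CPM and Cspg4 within 23.3 to 38.01 CPM.

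Mog, a protein of the outermost myelin layer, followed the same libraries. It was at 37.0, 87.4, 51.7 and 66.3 CPM in vehicle, at 41.4, 87.3, 83.4 and 62.6 after psilocybin at 1 mg/kg and at 42.2, 39.9, 41.3 and 70.4 after 3 mg/kg. With ketanserin alone it was at 46.6, 52.8, 62.0 and 47.1 CPM at the lower dose and at 49.5, 46.3, 59.4 and 66.6 at the higher dose. The combination gave 56.3, 91.8, 49.2 and 50.3, then 44.1, 78.1, 47.5 and 29.4 CPM. Vehicle replicate 2 and both drugs 1 mg/kg replicate 2 were again among the highest. The log2 fold change of Mog against vehicle ran from -0.32 (psilocybin 3 mg/kg) to 0.18 (psilocybin 1 mg/kg), each with an SE of 0.285 or 0.286.

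Gjb1, the connexin 32 of gap junctions, was in vehicle at 5.14, 15.4, 8.98 and 14.1 CPM. After psilocybin at 1 mg/kg it was at 5.17, 19.2, 17.8 and 8.92, and after 3 mg/kg at 7.38, 5.30, 3.81 and 9.25. After ketanserin it was at 7.90, 9.74, 9.25 and 6.17 CPM, and at 6.65, 7.43, 8.15 and 12.97 at the higher dose. In the groups given both drugs it was at 8.07, 12.96, 8.26 and 7.13, then at 4.63, 13.5, 8.43 and 9.52 CPM. The libraries of psilocybin at 3 mg/kg were low but inside the vehicle range except for replicate 3. The difference from vehicle was -0.76 (SE 0.385, 95% interval -1.55 to 0.03; edgeR, unadjusted p = 0.0602, adjusted p = 0.997). It was -0.54 without vehicle replicate 2 and -0.99 without vehicle replicate 1.

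Ugt8, which makes the galactosylceramide of myelin, had the smallest p among members in the joint test. Its levels were 27.4, 60.3, 41.9 and 42.6 CPM in vehicle, 29.6, 59.6, 79.0 and 44.8 after psilocybin at 1 mg/kg and 26.8, 19.8, 22.1 and 43.9 after 3 mg/kg. After ketanserin they were 33.9, 37.2, 34.3 and 37.7, and 37.3, 32.6, 58.0 and 40.0 CPM. Both drugs gave 46.4, 67.9, 28.5 and 37.9 at the lower dose and 31.2, 44.6, 34.8 and 23.2 at the higher. After the higher dose of psilocybin 3 of 4 libraries lay below every vehicle library, and replicate 4 lay among them. The difference from vehicle was -0.61 (SE 0.300, 95% interval -1.23 to 0.0049; edgeR, unadjusted p = 0.0517, adjusted p = 0.997), and it was -0.40 without vehicle replicate 2 and -0.91 without replicate 4 of the treated group.

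Enpp2 (autotaxin), which makes lysophosphatidic acid, varied far less. It was at 50.2, 48.0, 53.9 and 55.3 CPM in vehicle, at 41.2, 49.97, 59.1 and 46.1 after psilocybin at 1 mg/kg and at 40.3, 39.2, 40.1 and 48.5 after 3 mg/kg. After ketanserin it was at 34.1, 45.1, 47.2 and 48.3, and at 40.7, 37.0, 58.3 and 45.7 CPM. With both drugs it was at 54.7, 58.9, 42.1 and 46.7, and at 46.5, 42.0, 51.3 and 62.6 CPM. The higher psilocybin dose thus overlapped with vehicle by 1 library (48.5 against 48.0). The difference there was -0.30 (SE 0.148; edgeR, unadjusted p = 0.0524), and for ketanserin at 1 mg/kg it was -0.25 (edgeR, unadjusted p = 0.108), or -0.13 without replicate 1 of that group.

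Among the transcription factors was Sox10, one of those under which myelin genes switch on. It was at 30.8, 88.9, 37.97 and 56.8 CPM in vehicle. After psilocybin it was at 46.4, 72.3, 82.1 and 43.5 at the lower and at 57.7, 42.7, 37.2 and 65.5 at the higher dose. With ketanserin it was at 49.3, 45.9, 54.2 and 47.6, and at 55.0, 42.7, 53.2 and 53.9 CPM. The combination gave 49.96, 68.6, 45.6 and 38.3 CPM at 1 mg/kg, and 37.5, 68.0, 36.6 and 45.1 at 3 mg/kg. All 6 treated groups overlapped with vehicle, whose own libraries held both the lowest and the highest level of all 28. Its differences from vehicle were within -0.20 and 0.19.

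Myrf, which keeps myelin genes on in mature cells, was at 47.0, 96.6, 53.1 and 69.1 CPM in vehicle, at 52.3, 83.9, 93.0 and 63.3 after psilocybin at 1 mg/kg and at 48.3, 48.8, 42.8 and 71.2 after 3 mg/kg. With ketanserin it was at 51.0, 61.5, 57.1 and 58.5, and at 56.2, 45.3, 64.1 and 69.8 CPM. In the groups given both drugs it was at 63.2, 93.9, 52.8 and 54.4, and at 43.0, 71.4, 57.7 and 55.8 CPM. The libraries that were high for Mbp were high for Myrf. Its largest difference from vehicle was -0.33 (SE 0.224) at the higher psilocybin dose.

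Apod, a lipid-binding lipocalin, was at 51.0, 142, 56.7 and 86.9 CPM in vehicle, at 55.5, 140.4, 134 and 79.4 after psilocybin at 1 mg/kg and at 84.5, 50.7, 49.8 and 90.2 after 3 mg/kg. With ketanserin it was at 66.1, 64.8, 75.3 and 54.4, and at 53.8, 48.4, 69.3 and 83.8 CPM. With both drugs it was at 64.9, 103, 67.4 and 47.9, and at 50.02, 99.4, 56.4 and 43.4 CPM. Both groups that span the widest range, vehicle and the lower psilocybin dose, contain low and high libraries. Car2, the carbonic anhydrase of oligodendrocytes, was at 102, 157, 94.6 and 123 CPM in vehicle, at 87.0, 177, 174 and 108 after the lower and at 109.7, 88.8, 71.4 and 121 after the higher dose of psilocybin. Cldn11, the claudin of myelin tight junctions, was in the same groups at 119, 280.2, 141 and 185, at 117, 295, 291 and 185, and at 151, 107, 98.8 and 185 CPM. For both genes replicates 2 and 3 of the lower dose were the highest of these 12 libraries. In the other groups Car2 was at 91.9, 103, 109 and 93.0 and at 96.3, 94.2, 101 and 114 CPM with ketanserin, and at 115, 154, 102 and 89.5 and at 91.0, 117, 112 and 93.6 CPM with both drugs. Cldn11 was at 127, 135, 148 and 138 and at 156, 128, 178 and 184 CPM with ketanserin, and at 162, 281, 137 and 128 and at 117, 213, 127 and 97.3 CPM with both. None of these groups lay apart from vehicle.

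Enpp6, the lowest member per length, had few counts. It was at 2.23, 3.50, 1.92 and 1.44 CPM in vehicle, at 2.16, 4.26, 6.26 and 2.81 after psilocybin at 1 mg/kg and at 2.13, 1.24, 1.53 and 2.58 after 3 mg/kg. With ketanserin it was at 2.36, 2.72, 1.796 and 2.44, and at 2.48, 1.45, 2.42 and 2.96 CPM. The combination gave 1.28, 4.49, 2.73 and 2.28 CPM at 1 mg/kg, and 2.90, 2.23, 2.48 and 2.97 at 3 mg/kg. The lower dose of psilocybin held 2 libraries above all vehicle libraries. Against vehicle its log2 fold change was 0.76 (SE 0.361, 95% interval 0.02 to 1.51; edgeR, unadjusted p = 0.0442, adjusted p = 1.00), and it was 0.42 without replicate 3 of the treated group. It was 1 of 34 members higher at an unadjusted p under 0.05, where 0.563% of all genes were.

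The precursor gene Pdgfra gave another picture. It was at 54.3, 39.3, 50.7 and 42.2 CPM in vehicle, at 36.3, 36.7, 44.1 and 57.6 after psilocybin at 1 mg/kg and at 40.0, 52.5, 50.4 and 39.7 after 3 mg/kg. With ketanserin it was at 37.0, 39.6, 41.4 and 50.6, and at 40.1, 47.7, 57.0 and 40.8 CPM. In the groups given both drugs it was at 55.3, 50.02, 36.1 and 47.3, and at 45.7, 37.8, 48.0 and 37.6 CPM. Vehicle replicate 2, the highest library for 15 members, was the lowest vehicle library for Pdgfra. Every difference of Pdgfra from vehicle lay between -0.15 and 0.02, each with an SE near 0.161.

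Against vehicle the signs of the members lined up within a comparison. All 6 comparisons use the same 4 vehicle libraries, so their signs are not independent of each other. After psilocybin at 1 mg/kg 29 of 34 members were higher, with a median log2 fold change of 0.15 (all genes: 47.5% higher, median -0.01). After 3 mg/kg 34 of 34 were lower, median -0.30 (all genes 47.8% higher, median -0.01). For ketanserin 32 of 34 were lower at 1 mg/kg (median -0.27) and 30 of 34 at 3 mg/kg (median -0.15), where 44.2% and 45.4% of all genes were higher. With both drugs 23 of 34 were lower at 1 mg/kg (median -0.06) and 31 of 34 at 3 mg/kg (median -0.22), where 46.9% and 46.4% of all genes were higher. Members that vary together are not independent of each other, so these counts carry no test. The members at an unadjusted p under 0.05 were 0 of 34 for psilocybin at 3 mg/kg (3% of all genes), 0 for ketanserin at 1 mg/kg (2.06%) and at 3 mg/kg (2%), 1 that was lower for both drugs at 1 mg/kg (0.695%) and 0 for both at 3 mg/kg (3.13%). In none of the 6 did any member's 4 libraries lie wholly apart from the vehicle libraries, as those of 1.36%, 2.11%, 1.87%, 1.7%, 1.32% and 1.14% of all genes did in the 6 comparisons in the order given.

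Vehicle replicate 2 set much of these values. Without it the median of the members was -0.09 for psilocybin at 3 mg/kg, 0.37 for psilocybin at 1 mg/kg, -0.01 for ketanserin at 1 mg/kg, 0.10 for ketanserin at 3 mg/kg, 0.18 for both drugs at 1 mg/kg and 0.01 for both at 3 mg/kg. The counts of lower members became 25, 4, 18, 12, 6 and 14 of 34. Without psilocybin 1 mg/kg replicate 3 the median for that dose was -0.01, with 20 of 34 lower. Without psilocybin 3 mg/kg replicate 4 the median for that dose was -0.54. Without both drugs 1 mg/kg replicate 2 that group's median was -0.25. Without vehicle replicate 1, the lowest vehicle library for 27 members, the median was -0.40 for ketanserin at 1 mg/kg, -0.29 for ketanserin at 3 mg/kg and -0.37 for both drugs at 3 mg/kg.

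**Figure D3:**
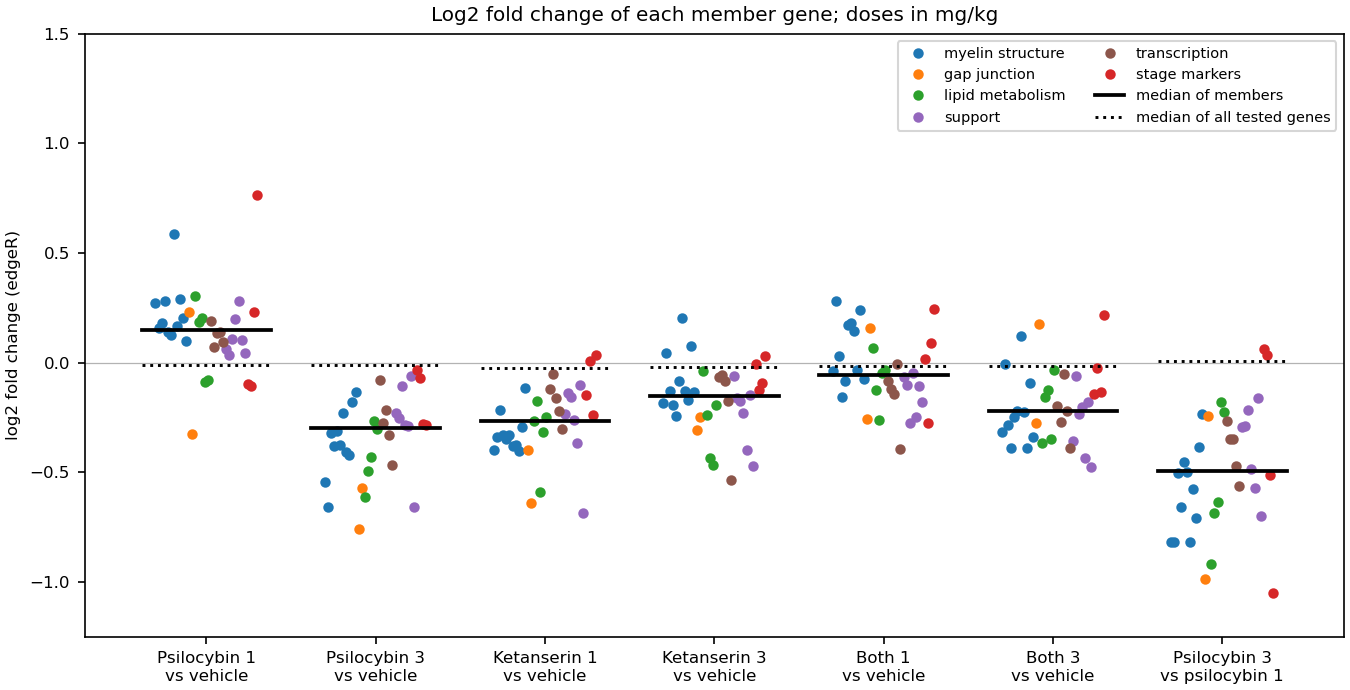
Log2 fold change (vertical axis, edgeR) of each of the 34 genes, coloured by role, in the 6 comparisons with vehicle and in the higher against the lower dose of psilocybin (horizontal axis). Solid bars are the median of the genes, which runs from 0.15 to -0.30 against vehicle and is -0.49 between the doses of psilocybin; dotted bars are the median of all 17404 tested genes, near 0.

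By role, the gap junction pair had the lowest median in the comparisons of psilocybin with vehicle, but it holds only 2 genes. Of these, Gjc3 rested on as few as 7 counts in a library. In vehicle replicate 3 Gjc3 was at 4.58 CPM, where the next vehicle library was at 1.78. For psilocybin at 3 mg/kg the 2 connexin genes had a median of -0.66, the 11 myelin protein genes -0.38, the 5 lipid and acetate genes -0.43, the 5 transcription factors -0.28, the 7 support genes -0.25 and the 4 stage markers -0.18. For ketanserin at 1 mg/kg these medians were -0.52, -0.34, -0.27, -0.16, -0.24 and -0.07. For psilocybin at 1 mg/kg they were -0.05, 0.18, 0.19, 0.13, 0.10 and 0.07, and the connexins Gjb1 and Gjc3 were on opposite sides of 0. The member with the smallest p for ketanserin at 1 mg/kg was Hapln2, the link protein of the node of Ranvier (Bral1), at -0.69 (SE 0.360; edgeR, unadjusted p = 0.0682). It was at 22.7, 22.9, 24.3 and 16.2 CPM after ketanserin and at 16.8, 55.2, 26.5 and 40.2 in vehicle, so both groups overlap. Without vehicle replicate 2 the difference was -0.35 and without vehicle replicate 1 it was -0.91. Gal3st1, which sulfates galactosylceramide, was next, at 3.81, 8.67, 5.92 and 7.46 CPM against 5.75, 13.6, 8.98 and 10.6 in vehicle, a difference of -0.59 (SE 0.338; edgeR, unadjusted p = 0.0941; -0.36 without vehicle replicate 2). For ketanserin at 3 mg/kg Hapln2 was at 23.9, 17.0, 26.2 and 33.1 CPM, a difference of -0.47 (SE 0.358; -0.14 without vehicle replicate 2).

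The other members named by their p against vehicle were few, and their differences were small against their errors. Ermn, a cytoskeletal protein of late oligodendrocytes, was at 8.38, 19.9, 24.3 and 17.3 CPM after psilocybin at 1 mg/kg and at 6.83, 12.2, 15.5 and 11.9 in vehicle, a difference of 0.59 (SE 0.439; 0.37 without replicate 3 of the treated group). Aspa, which splits N-acetylaspartate and so frees acetate for lipid, was at 11.3, 5.98, 7.39 and 10.8 CPM after ketanserin at 3 mg/kg and at 11.4, 18.01, 7.18 and 12.4 in vehicle, a difference of -0.47 (SE 0.253; -0.21 without vehicle replicate 2). Nkx6-2, a homeodomain factor of myelinating cells, was in that group at 13.7, 7.08, 11.6 and 13.2 CPM and in vehicle at 7.37, 29.3, 12.2 and 17.3, a difference of -0.54 (SE 0.378; -0.10 without vehicle replicate 2). Each of these ranges overlaps with that of vehicle.

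With both drugs at 1 mg/kg, Cspg4 (NG2) had the smallest p. It was at 26.0, 24.2, 24.9 and 23.3 CPM there, against 26.6, 33.4, 23.7 and 35.3 in vehicle and 32.3, 29.8, 27.5 and 30.1 after ketanserin at 1 mg/kg. The 4 libraries with both drugs lay below all 4 with ketanserin alone, as did 1.56% of all genes. The differences were -0.27 against vehicle (SE 0.130; edgeR, unadjusted p = 0.0446, adjusted p = 1.00) and -0.28 against ketanserin (SE 0.130; unadjusted p = 0.0398, adjusted p = 1.00). The former was -0.18 without vehicle replicate 4. Qdpr, which regenerates tetrahydrobiopterin, was at 110.2, 123, 106 and 86.1 CPM with both drugs and at 91.0, 186, 106 and 131 in vehicle, a difference of -0.28 (SE 0.213; -0.04 without vehicle replicate 2). Nkx6-2 was there at 12.3, 18.6, 10.3 and 9.18 CPM, a difference of -0.39 (SE 0.376) that was 0.04 without vehicle replicate 2. With both drugs at 3 mg/kg the smallest p were those of Olig1 (99.6, 151, 102 and 106 CPM against 95.8, 208, 109.6 and 139.8; -0.27, SE 0.193), Aspa (9.27, 10.7, 9.24 and 9.22 CPM; -0.35, SE 0.253) and the iron carrier Tf (128, 218, 178 and 229 CPM against 180.3, 334, 208 and 243; -0.36, SE 0.265). All 3 overlapped with vehicle, and without vehicle replicate 2 they were at -0.0035, -0.10 and -0.16.

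Of the 15 contrasts, the one between the doses of psilocybin had the member median farthest from 0. It uses no vehicle library. At 3 against 1 mg/kg 32 of 34 members were lower, with a median log2 fold change of -0.49, against a median of 0.01 and 51.9% higher over all genes. All 18 myelin members, 5 transcription factors and 7 support genes were lower, with medians of -0.61, -0.35 and -0.30. Pdgfra (0.06) and Cspg4 (0.03) were the 2 that were higher. At an unadjusted p under 0.05, 9 of 34 members were lower, where 1.69% of all genes were, and 0 passed the adjusted threshold (adjusted p = 1.00 for each).

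The 9 were Ugt8 (-0.92, SE 0.301), Enpp6 (-1.05, SE 0.365), Gjb1 (-0.99, SE 0.386), Car2 (-0.48), Cldn11 (-0.71), Mobp (-0.82), Mbp (-0.82), Myrf (-0.47) and Fa2h (-0.68). Their levels in both doses overlapped in every case, as did those of the other members (0 of 34 apart, where 2.61% of all genes were). Ugt8, for one, was at 53.2 ± 21.1 CPM (SD, n = 4) after the lower and 28.2 ± 10.9 CPM after the higher dose. Replicate 1 of the lower dose, at 29.6 CPM, was near the low libraries of the higher dose. Replicate 4 of the higher dose, at 43.9 CPM, was next to replicate 4 of the lower dose, at 44.8 CPM.

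The count of 9 rested on single libraries. It was 24 without psilocybin 1 mg/kg replicate 1 and 22 without psilocybin 3 mg/kg replicate 4, the libraries that go against their groups. It was 3 and 1 without replicates 2 and 3 of the lower dose, and 3 and 2 without replicates 2 and 3 of the higher dose. The median of the 34 stayed between -0.70 and -0.30 over the libraries left out.

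Other genes were recorded beside this contrast. Of 10 neuron markers 7 were lower (median -0.08), and the neurofilament gene Nefl, a component of axons, was at -0.47 (SE 0.093; edgeR, unadjusted p = 2.91e-05, adjusted p = 0.169), with its 4 libraries at the higher dose below the 4 at the lower dose. The summed level of the neuron markers was 7620.2 to 9203 CPM after the lower and 7557 to 9190.1 CPM after the higher dose. Of 40 further oligodendrocyte genes 31 were lower (median -0.30), where 51.9% of all genes were higher. At an unadjusted p under 0.05, 5 of the 40 were lower, where 1.69% of all genes were. Among them were Gpr37, an orphan receptor of oligodendrocytes, at -0.59 and Adamts4 at -0.87. Of 10 genes of the axon and its paranode 10 were lower (median -0.27), among them Cntnap1 (Caspr) at -0.30 (SE 0.087, edgeR, unadjusted p = 0.00179, adjusted p = 0.976). The mean of these 10, as log2 deviation from the average of 28 libraries, was lowest in psilocybin 3 mg/kg replicate 1, at -0.81. It was -0.22, -0.18 and 0.04 in replicates 2 to 4 of that group. Within groups this mean had r = -0.027 with the mean of the myelin members. Of 18 cholesterol synthesis genes 15 were lower, by small amounts (median -0.04), and of 14 other precursor genes 8 were (median -0.03). The one tested choroid plexus marker, Ttr, was at 0.393, 9.68, 15.3 and 3.05 CPM after the lower and at 0.0710, 0.902, 0.347 and 0.612 CPM after the higher dose. The summed level of the 5 listed choroid and ependyma markers was 0.720 to 16.8 CPM after the lower and 0.639 to 2.58 CPM after the higher dose, with 0 of 5 at 0 in all 4 libraries of either group. Summed markers of meninges were at 209 to 537 and 230.2 to 344 CPM, and of striatum at 365 to 531 and 337 to 425 CPM. Their part in the result was not tested.

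Comparing both drugs with psilocybin alone asks what ketanserin adds. The median of the members was -0.22 at 1 mg/kg (27 of 34 lower) and 0.10 at 3 mg/kg (25 of 34 higher), with 0 of 34 at an unadjusted p under 0.05 in either, where 4.13% and 5.74% of all genes were. The median at 1 mg/kg was -0.41 without both drugs replicate 2 and -0.07 without psilocybin replicate 3. The median at 3 mg/kg was 0.01 without both drugs replicate 2 and 0.32 without psilocybin replicate 4. At the lower dose the smallest p were those of Qdpr (-0.39, SE 0.214) and Apod (-0.53, SE 0.333), which was at -0.77 without both drugs replicate 2 and at -0.33 without psilocybin replicate 2. At the higher dose they were those of Enpp2 (0.27, SE 0.148) and Mobp (0.65, SE 0.363), a small basic protein of compact myelin. Mobp was at 1.15 without psilocybin replicate 4 and Enpp2 at 0.15 without both drugs replicate 4.

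Comparing both drugs with ketanserin alone asks what psilocybin adds to ketanserin. The median was 0.21 at 1 mg/kg, with 29 of 34 members higher, and -0.01 without both drugs replicate 2. Tspan2, a tetraspanin of myelin, was at 0.53 (SE 0.248; edgeR, unadjusted p = 0.0415, adjusted p = 1.00), or 0.27 without that library. It was 1 of 34 members higher at an unadjusted p under 0.05, where 1.44% of all genes were. Cspg4, given above, was 1 of 34 lower, where 1.48% were. At 3 mg/kg the median was -0.04 (22 of 34 lower) and 0.06 without both drugs replicate 1, with Tf at -0.30 and Olig1 at -0.22. There 0 of 34 were at an unadjusted p under 0.05, against 3.41% of all genes.

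Doses of ketanserin were also compared. At 3 against 1 mg/kg the median was 0.09 (23 of 34 higher), with 0 of 34 at an unadjusted p under 0.05, where 1.64% of all genes were. The median was 0.04 without replicate 3 of the higher dose and 0.16 without its replicate 2. Tspan2 was at 0.37 and Ermn at 0.58, or 0.30 without replicate 3 of the higher dose. The 4 libraries of Tspan2 at the higher dose lay above the 4 at the lower dose, as did those of 1.05% of all genes. With both drugs at 3 against 1 mg/kg the median was -0.16 (27 of 34 lower) and 0.06 without replicate 2 of the lower dose. Cspg4 was at 0.25 there, or 0.10 without replicate 4 of the higher dose, and Ugt8 at -0.43, or -0.17 without replicate 2 of the lower dose. In that contrast 0 of 34 members were at an unadjusted p under 0.05, against 3.3% of all genes.

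The interaction asks whether both drugs together differ from the sum of each alone. At 3 mg/kg its median over members was 0.27, with 30 of 34 above 0. Enpp2 was the 1 member above 0 at an unadjusted p under 0.05, where 1.74% of all genes were. It was at 0.46 (SE 0.209, 95% interval 0.03 to 0.89; edgeR, unadjusted p = 0.0381, adjusted p = 0.993). Enpp2 was at 0.34 without both drugs replicate 4 and at 0.59 without ketanserin replicate 3. Plekhb1, a membrane protein with a pleckstrin homology domain, was next at 0.35. Vehicle enters this contrast, and the median was 0.04 without vehicle replicate 2. At 1 mg/kg the median was 0.05, or -0.19 without vehicle replicate 2, with 0 of 34 at an unadjusted p under 0.05, where 4.09% of all genes were. Gjc3 was at 1.12 there (SE 0.784; 0.50 without vehicle replicate 3) and Enpp2 at 0.29.

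How the members vary between animals was described after subtracting each group's mean, over 28 libraries. The SD of log2 CPM within groups had a median of 0.416 over the 34 members and 0.458 over the 18 myelin members. It was 0.345 over all tested genes and 0.296 over the 14808 whose log2 CPM averaged 0 or more. The steadiest members were Cspg4 (0.174), Enpp2 (0.214), Plekhb1 (0.214) and Pdgfra (0.235), and the most variable were Gjc3 (0.851) and Ermn (0.673). Between the lowest and highest of 28 libraries Ermn differed 8.34-fold, Mobp 5.91-fold and Mbp 4.13-fold, against 1.60-fold for Pdgfra and 1.63-fold for Cspg4. Gjc3 differed 10.05-fold, on as few as 7 counts in a library.

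The myelin members moved together from animal to animal. Over the 153 pairs of the 18, the median Pearson r was 0.714, and 83 pairs were above 0.7. Mbp and Mag, the glycoprotein of the inner myelin surface, had r = 0.986 and Mbp and Cnp 0.983. Only 5 pairs were below 0, all with the low-count Gjc3. Myrf (r = 0.955 with the mean of the myelin members) and Bcas1, which marks premyelinating and myelinating cells (0.957), were as close to it as Mal (0.965 with the mean of the other 17), the proteolipid that sorts myelin membrane. Sox10 had 0.825, Olig1 0.807 and Olig2 0.648. The r of Enpp6 was 0.577. The points share libraries and scaling factors, and these values are descriptions.

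**Figure D4:**
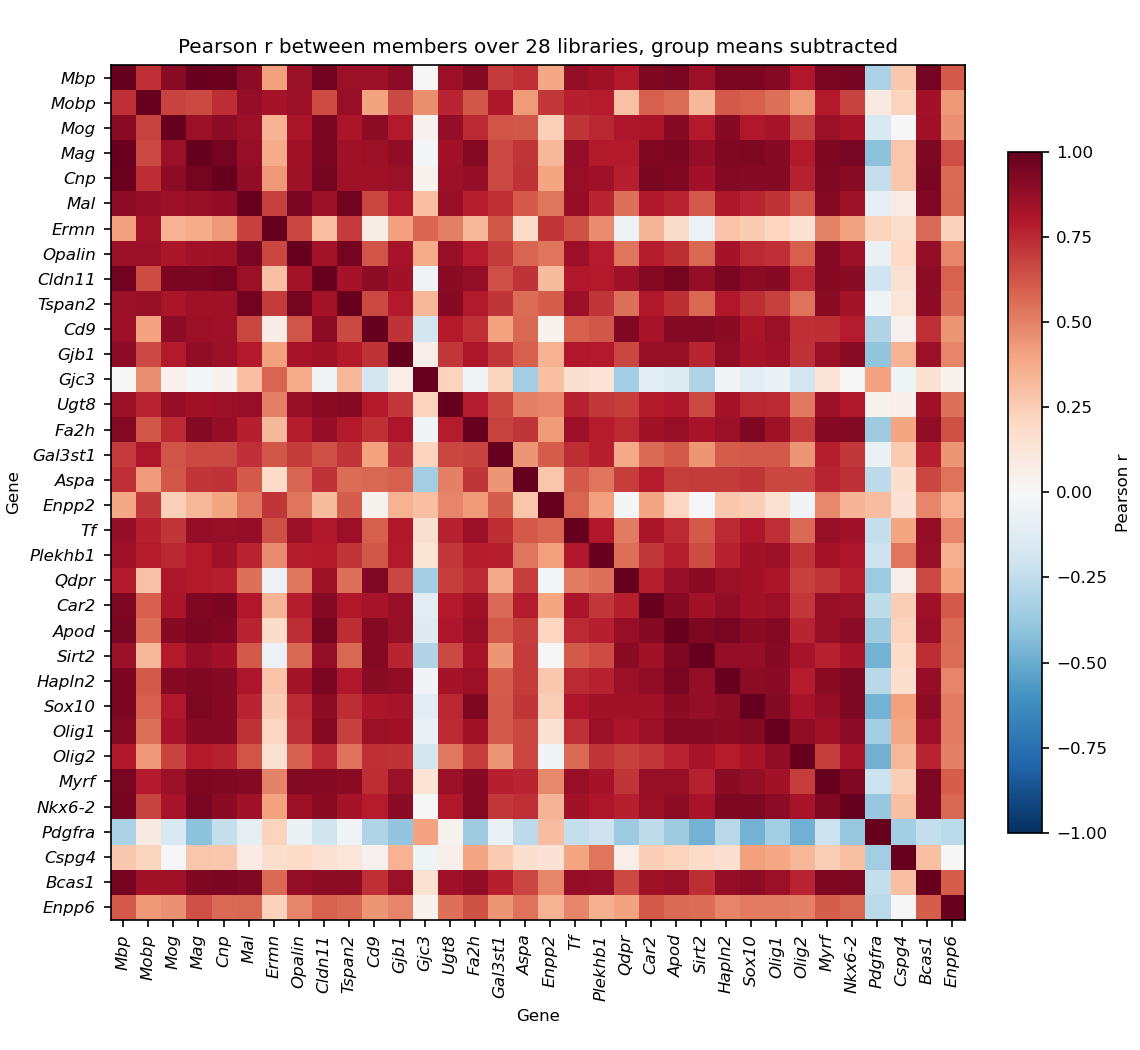
Pearson r between every pair of the 34 genes (both axes, in the order of the roles) over 28 libraries after group means were subtracted, from -1 (blue) to 1 (red). Most pairs of myelin, support and transcription genes are red, with a median of 0.714 within the 18 myelin members and a few pairs near 0, such as Ermn with Qdpr (-0.059). The rows of Pdgfra, Cspg4 and Gjc3 are mostly pale or blue, with some positive pairs, such as Gjc3 with Ermn (0.583) and Cspg4 with Plekhb1 (0.534).

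The precursor markers stood outside that pattern. Over the 36 pairs of Pdgfra or Cspg4 with a myelin member the median r was 0.065, from -0.407 (Pdgfra with Mag) to 0.404 (Pdgfra with Gjc3). Pdgfra and Cspg4, which are listed here as markers of precursors, had r = -0.351 with each other. The mean of 14 other precursor genes had r = 0.021 with the mean of the myelin members. 

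Outside the list, 13606 named genes were ranked by the same r with the mean of the myelin members. Among the 10 highest were Gsn, the actin-severing gelsolin (0.933), Adamts4, a proteoglycan-cutting protease (0.918), Phldb1 (0.914), Sema4d, an axon guidance semaphorin (0.897), Galnt6 (0.894), Evi2a (0.887), Lpar1, a receptor for the lysophosphatidic acid that Enpp2 makes (0.880), and the choline transporter Slc44a1 (0.864). Of 40 other oligodendrocyte genes listed apart from the members, 22 were among the first 100. The median r of all genes ranked was -0.016. Lowest in the ranking were Syt17 (-0.747), Zfp202 (-0.719) and Wfs1 (-0.713).

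The mean of the myelin members was also set beside other measures of the libraries. Its r within groups was -0.077 with the mean of the neuron markers, -0.026 with astrocyte, -0.017 with microglia and 0.006 with endothelial and mural markers. It was 0.304 with the Schwann, 0.269 with the choroid plexus and -0.158 with the meningeal markers, and 0.415 with cholesterol synthesis genes. The Schwann mean held only 3 tested genes and was lowest, at -2.29, in both drugs 3 mg/kg replicate 4. The choroid plexus mean was Ttr alone, at 0 to 15.3 CPM. The r of the mean of the myelin members was 0.337 with the mitochondrial share of counts (6.98 to 11.6%) and -0.269 with the TMM factor (0.905 to 1.05).

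Libraries also differed in their balance of long and short genes. For each library this was taken as the Spearman correlation, across tested genes, of gene length with the deviation of log2 CPM from the gene's mean, and it ran from -0.328 to 0.275. A negative value means relatively more reads on short genes. Within groups the members' r with this measure had a median of -0.44 and was negative for 29 of 34, against a median of -0.05 over all tested genes. Sirt2 (-0.78), Qdpr (-0.76), Cd9 (-0.68) and Olig2 (-0.65) were the most negative, and Pdgfra (0.73), Gjc3 (0.60), Ermn (0.42) and Enpp2 (0.41) the most positive. The mean of the myelin members itself had r = -0.204 with it. Vehicle replicate 2, the library with the highest level for 15 members, was at -0.304, and psilocybin 3 mg/kg replicate 3, with the lowest for 11, at -0.049. Other libraries went the other way. Psilocybin 3 mg/kg replicate 1 had the most negative value, -0.328, with only 8 of 34 members above their mean over 28 libraries. Both drugs 1 mg/kg replicate 2 was at 0.054, with 33 of 34 above. The part of the length balance in the members' levels was not tested.

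**Figure D5:**
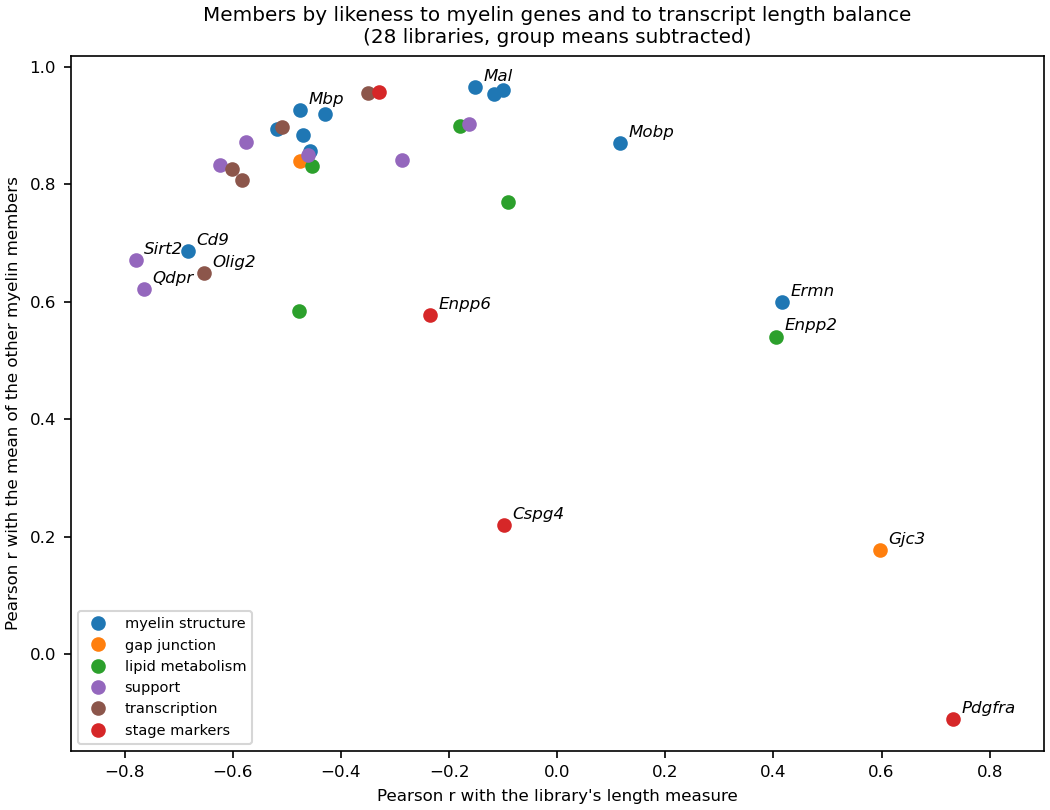
For each of the 34 genes (points, coloured by role), Pearson r over 28 libraries, with group means subtracted, with the library's length measure (horizontal axis) and with the mean of the other myelin members (vertical axis). Mal and Mbp are above 0.9 on the vertical axis, Sirt2 and Qdpr lie farthest left, and Pdgfra lies at 0.73 on the horizontal axis and -0.11 on the vertical.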

How the data were processed

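RNA sequencing libraries were poly(A)-selected and directional (dUTP), per the labels' protocols. The submitters' processing notes name HISAT2 2.0.5, StringTie 1.3.3b, featureCounts 1.5.0-p3 and rn6, without roles. Whether reads were counted by strand was not given in the sources used here, so reads of overlapping antisense genes may be shared. The deposited table holds raw read counts and FPKM per gene and library, per the file headers. FPKM served only to compare levels between genes. Columns were matched to samples by name, and all 28 libraries were used.

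Counts were tested with edgeR 4.0.16 (R 4.3.3, limma 3.58.1): genes filtered by filterByExpr, TMM factors, 1 coefficient per group over all 7 groups (21 residual degrees of freedom), robust quasi-likelihood tests, Benjamini-Hochberg adjustment over 17404 genes and a threshold of 0.05. CPM use the TMM factors, and log2 CPM a prior count of 0.5. P-values use 1 estimate per gene of the spread between biological replicates within groups. It is shared by all 28 libraries and is not the spread of the compared groups alone. The script was tested on simulated data.

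Levels by library are given for 10 anchor genes, for the 4 members with the smallest p in the joint test and for the 3 with the smallest p in each comparison with vehicle. In other comparisons the 2 with the smallest p are named. Gpr37, Adamts4, Cntnap1, Nefl and Ttr were named after their values were seen. The members, lists and tests were chosen with earlier results of these data known. Alternatives were DESeq2 1.42.0, its size factors, library totals alone, no filter, a fit of only the groups compared, and leaving out each library. Promoter windows are RefSeq sequences on GRCr8, matched by symbol. No coordinates were converted between that build and rn6. Some genes that the ranking or the marker check covered are not reported here.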

Additional observations from a re-analysis of the deposited data

Results flagged for a closer look

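In each of 245 groups of 4 libraries (34 members and the mean of the 18 myelin members, in 7 groups), the highest and lowest library were checked for a gap to the next, as a share of the group's range, past Dixon's 95% critical value, which chance gives in about 5% of groups. There were 15 such flags over the 245 groups, with several from the same library. Psilocybin 3 mg/kg replicate 4 accounted for 6, all high: Mog at 70.4 CPM (next 42.2), Mal at 215.0 CPM (next 89.6), Tspan2 at 107 CPM (next 57.4), Enpp2 at 48.5 CPM (next 40.3), Bcas1 at 135 CPM (next 82.1) and the mean of the 18 myelin members at 0.39 above its average over 28 libraries on the log2 scale (next -0.48). These genes vary together, so the 6 are not separate events.

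Among the others, Mog was high in both drugs 1 mg/kg replicate 2 (91.8 CPM, next 56.3) and Gjc3 in vehicle replicate 3 (4.58 CPM, next 1.78). Fa2h was flagged in ketanserin 1 mg/kg replicate 1 (29.9 CPM, next 28.8). That group was tight, from 28.6 to 29.9 CPM, inside the vehicle range of 21.1 to 56.7 CPM. Aspa (10.7 CPM, next 9.27) and Olig1 (151 CPM, next 106) were high in both drugs 3 mg/kg replicate 2. Low values were those of Tspan2 in ketanserin 1 mg/kg replicate 1 (60.4 CPM, next 65.5) and Sox10 in ketanserin 3 mg/kg replicate 2 (42.7 CPM, next 53.2). Cd9 (35.3 CPM, next 47.7) and Olig2 (24.4 CPM, next 30.3) were low in ketanserin 1 mg/kg replicate 4.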

How the results depend on the processing

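Under DESeq2, DESeq2 size factors, library totals alone, no filter on low counts, a fit of only the groups compared and the leaving out of each library, 0 of 34 members were called in any contrast or in the joint test. The median log2 fold change of the members kept its sign in all 15 contrasts under the 5 settings that keep every library. It was -0.007 instead of -0.06 for both drugs at 1 mg/kg against vehicle with library totals alone. Leaving out single libraries moved that median from -0.01 to 0.37 for psilocybin at 1 mg/kg, from -0.54 to -0.09 at 3 mg/kg, from -0.40 to -0.01 and from -0.29 to 0.10 for ketanserin at 1 and 3 mg/kg, from -0.25 to 0.18 and from -0.37 to 0.01 for both drugs, and from -0.70 to -0.30 between the doses of psilocybin. Members lower at an unadjusted p under 0.05 between those doses were 1 to 24 of 34 over the libraries left out, and 8 to 10 under the other settings. Without ketanserin with psilocybin 3 mg/kg replicate 4, the library with the most genes at 0, that count was 7. Nkx6-2 for both drugs at 1 mg/kg against vehicle ran from -0.64 without replicate 2 of the treated group to 0.043, a reversed sign, without vehicle replicate 2. The median r between myelin members was 0.679 to 0.748 over the libraries left out, 0.690 with library totals alone and 0.710 without subtracting group means. The cause of these shifts was not tested. No paired analysis was possible because the labels give no replicate numbers that the groups share. With 4 animals a group, a member's difference from vehicle carried a 95% interval of about 0.57 either side, and Gjc3 rested on as few as 7 counts.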
